A study of Caenorhabditis elegans with 2 samples.

Results

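The genes described here encode the mitochondrial respiratory chain of Caenorhabditis elegans, the complexes of the inner mitochondrial membrane that oxidise NADH and succinate, reduce oxygen and make ATP. The rule that chose them uses gene names and no measured value, but it was written with earlier results of these data known. All protein-coding genes with symbols starting nuo-, cox-, atp-, cyc- or ucr- were taken from the Ensembl annotation of WBcel235 (ce11), with sdha-1, sdha-2, sdhb-1, isp-1, gas-1 and mev-1 added. This gave 40 of the 19973 protein-coding genes on the 6 chromosomes that the lists cover. The assay was ChIP-seq, the sequencing of DNA fragments that come down with a protein, here the nuclear receptor family member NHR-237 in whole L3 larvae, labelled as mixed sex. All worms were of strain OP228 and carried the unc-119(ed3) allele and the wgIs228 insertion, from which eGFP-tagged NHR-237 is made. There was 1 group with 2 biological replicates and fragments of 150 to 350 bp. Coverage of the control library was not analysed here. Whole animals mix all cell types, so binding in 1 tissue cannot be read from these lists.

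For each gene the highest candidate was taken with its summit between 2000 bp before and 100 bp after the gene start. The signal is the authors' own peak value, with no error and no stated scale, and ranks were taken within 1 list at a time. The pooled list and each replicate's list hold 30000 candidate regions each. Their lowest signals were 13.8, 7.61 and 7.41 for the pool, replicate 1 and replicate 2, and being in a list is therefore a weak criterion. The list past the irreproducible discovery rate (IDR) threshold, which keeps peaks that rank alike between lists, holds 48. The pooled list was made from the reads of both replicates and is no independent repeat of either. Read depth was unknown. Members are genes and not replicates of a condition, and neighbouring genes can share a summit, so counts are set beside the same counts over all 19973 genes and no difference between complexes was tested.

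As background, complexes I and II pass electrons from NADH and succinate to ubiquinone, complex III passes them to cytochrome c, complex IV (cytochrome c oxidase) passes them to oxygen, and ATP synthase uses the resulting proton gradient. Most subunits are encoded in the nucleus, and the genes of the mitochondrial genome were outside the lists. In C. elegans, mutations in mev-1, gas-1, isp-1 and nuo-6 are known to alter lifespan or sensitivity to oxygen. Many nematode genes lie in closely spaced runs on 1 strand that are transcribed together, so the promoter of a gene may lie upstream of another gene. Nuclear hormone receptors bind DNA through zinc fingers, often at half-sites with the core AGGTCA.

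The members whose highest pooled candidate was in the top 10% of the list were cyc-2.1, cox-5A, mev-1 and sdha-1. The 201 bases around the pooled summits of cyc-2.1, mev-1 and sdha-1 are shown because they are among the 4 highest pooled signals of the 40 genes. The stretches are chrIV:4749976-4750176, chrIII:10334030-10334230 and chrX:8546235-8546435, in that order. They are read 5′ to 3′ on the plus strand of the RefSeq WBcel235 genome, and capitals mark matches on either strand to the receptor half-site AGGTCA or its variant AGTTCA, the GA repeat GAGAGA, the E-box CACGTG, or the strings AGCGCG and CCCTGC.
cyc-2.1: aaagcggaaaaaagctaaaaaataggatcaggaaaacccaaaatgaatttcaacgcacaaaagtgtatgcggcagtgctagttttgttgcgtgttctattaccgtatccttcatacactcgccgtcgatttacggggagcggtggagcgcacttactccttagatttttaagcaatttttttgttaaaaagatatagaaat
mev-1: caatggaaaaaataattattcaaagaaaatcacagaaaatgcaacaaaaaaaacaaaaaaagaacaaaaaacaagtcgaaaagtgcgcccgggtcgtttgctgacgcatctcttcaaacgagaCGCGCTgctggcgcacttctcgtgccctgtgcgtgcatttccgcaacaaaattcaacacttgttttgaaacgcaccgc
sdha-1: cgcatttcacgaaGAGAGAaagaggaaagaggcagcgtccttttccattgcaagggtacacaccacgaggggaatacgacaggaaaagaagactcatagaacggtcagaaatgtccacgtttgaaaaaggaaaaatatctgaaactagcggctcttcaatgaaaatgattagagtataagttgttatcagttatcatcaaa
The window of cyc-2.1 held no match, and each of the others held 1. In sdha-1 it was GAGAGA, and in mev-1 AGCGCG.

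Over the 40 genes, a candidate lay in the window of 20 in the pooled list (50%, against 50.4% of all protein-coding genes), of 20 in replicate 1 (50% against 49.7%) and of 18 in replicate 2 (45% against 50.5%). These shares are near the background and are not a result about the respiratory chain. Both replicate lists had a candidate for 9 genes (22.5% against 29.7%), and so did the pool and both replicates together (22.5% against 26%), while none of the 3 lists had one for 10 genes (25% against 27.3%). An IDR peak lay in the window of 2 genes, cyc-2.1 and cox-5A (5% against 0.135%, which is 27 of all genes). A pooled candidate among the 1000 of highest signal was found for 3 genes (7.5% against 2.62%), and in the top 10% of the list for 4 (10% against 6.86%). The median percentile of the highest pooled signal was 73.7 over the 20 members with a candidate and 56.9 over the 10074 such genes in all. Counts this small rest on few genes, and without cyc-2.1 and cox-5A the members' median was 71.6.

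**Figure D1:**
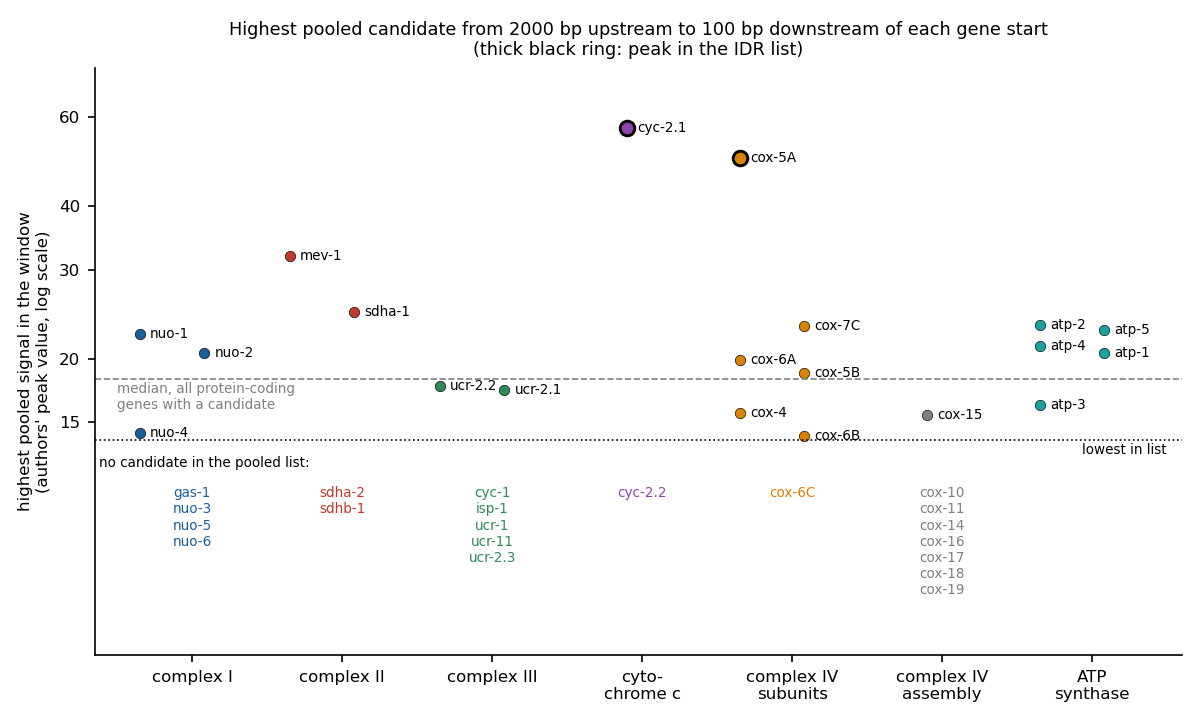
Highest pooled signal in the window of each gene (y axis, the authors' peak value on a log scale) by complex (x axis); each point is 1 gene, and genes without a pooled candidate are named below the line of the lowest signal in the list. The 2 ringed genes with an IDR peak, cyc-2.1 at 57.1 and cox-5A at 49.8, stand above the other members, followed by mev-1 at 31.9.

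In complex IV, cox-5A had an IDR peak that lay in the window of no other protein-coding gene. cox-5A (WBGene00012553, III 12905491 to 12906619, plus strand) encodes a nuclear subunit of cytochrome c oxidase. Its pooled signal was 49.8, rank 36 of 30000, with the summit 313 bp upstream of the start. Replicate 1 had a signal of 19.8, 265 bp upstream, and replicate 2 a signal of 32.4, 307 bp upstream. All 3 lists thus placed a candidate within 48 bp of the pooled summit, at rank 22 in replicate 2 and rank 353 in replicate 1. The summit lay in intergenic sequence, and cox-5A had the nearest protein-coding start. A further pooled candidate of 21.5, 1195 bp upstream, was matched in replicate 2 (14.8) and had no replicate 1 candidate in the window.

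The other complex IV subunits had lower values. cox-7C had a pooled signal of 23.3, with 12.0 in replicate 1 and 15.7 in replicate 2, but 1871 bp upstream of its start and 233 bp upstream of F26E4.5 on the opposite strand, in coding sequence of F26E4.4. cox-6A had 19.9, 8.39 and 11.1 in the pool, replicate 1 and replicate 2, 1878 bp upstream in coding sequence of alh-1. cox-5B had a pooled signal of 18.8, 15 bp downstream of the start in its own 5′ untranslated exon. Its replicate 1 candidate there had 9.24, below the 9.41 of another 1328 bp upstream, and replicate 2 had none in the window. cox-4 had 15.6 in the pool and 13.6 in replicate 2, 288 bp and 302 bp upstream, and none in replicate 1. cox-6B had 14.1 in the pool only, and cox-6C 7.77 in replicate 2 only, both close to the lowest signal of the list. The annotated span of cox-6B is long, III 2699663 to 2786859, and its window rests on the 5′ end of that span. In all, 6 of the 7 subunit genes had a pooled candidate, 4 a replicate 1 candidate and 5 a replicate 2 candidate. These shares were 85.7%, 57.1% and 71.4%, against 50.4%, 49.7% and 50.5% of all protein-coding genes.

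The complex IV assembly factors had candidates less often by count than the subunits, a difference that was not tested. These proteins make haem a, deliver copper and insert subunits into the membrane, and are not part of the finished enzyme. Only 1 of 8 genes had a candidate in each list. This was 12.5%, against 50.4%, 49.7% and 50.5% of all genes in the pool, replicate 1 and replicate 2. None of the 3 lists had one for 6 of 8 (75%, against 27.3% of all genes). cox-15, the haem a synthase, had 15.5 in the pool and 10.1 in replicate 2, 1684 bp and 1749 bp upstream. The pooled summit lay in a 3′ untranslated exon of fndc-1, nearest to the start of cchl-1, a cytochrome c haem lyase gene. cox-10, the haem farnesyltransferase, had 9.58 in replicate 1 only. cox-11, cox-14, cox-16, cox-17, cox-18 and cox-19 had none, among them the genes of the copper chaperones COX-11 and COX-17 and of the membrane insertase COX-18. Of the 8, 5 (62.5%) start within 500 bp of the end of a gene on the same strand, against 20.8% of all protein-coding genes that do.

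Taking the start of the first gene of such a run, a choice made after these values were seen, gave 2 of the assembly factors a candidate in all 3 lists. cox-18 follows Y55F3AR.2, whose start is 2912 bp away. A pooled candidate of 34.5 at rank 171 lay 137 bp upstream of Y55F3AR.2, with 18.3 in replicate 1 and 14.5 in replicate 2, 159 bp and 148 bp upstream. Only cyc-2.1 and cox-5A had a higher pooled signal in their own windows. cox-11 follows lin-54 as the third gene of a run, and lin-54 had 19.96 in the pool, 10.02 in replicate 1 and 14.2 in replicate 2, at positions that differed (844 bp, 1560 bp and 960 bp upstream). cox-15 behind rpn-9 had 14.8 in the pool and 11.4 in replicate 1 there, and none in replicate 2. cox-17 behind ubc-20 and cox-19 behind hpo-35 had no candidate there either. Members of other complexes with candidates in all 3 lists at the first start were atp-4, nuo-2 and cyc-2.1. atp-4 behind alh-4 had 25.5, 9.78 and 12.98 in the pool, replicate 1 and replicate 2, and gained its replicate 2 candidate by the change. nuo-2 behind T10E9.14 (22.6, 15.8 and 9.29) and cyc-2.1 behind rpl-20 already had candidates in all 3 lists in their own windows. sdha-1 behind D2021.4 lost its replicate 1 candidate, with 15.1 in the pool and 8.28 in replicate 2 there. Over all 40 genes the change of start left the count nearly the same, at 21 with a pooled candidate (52.5%, against 50.4% of all genes treated alike). Both replicate lists then had a candidate for 11 genes (27.5% against 29.5%), which is near the background.

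Cytochrome c, the soluble carrier between complexes III and IV, is encoded by a pair of paralogs with different values. cyc-2.1 (WBGene00017121, IV 4747895 to 4749012, minus strand) had the highest pooled signal of the 40 genes, 57.1 at rank 30, and an IDR peak. Replicate 1 had 32.99 at rank 31 and replicate 2 had 19.6 at rank 279, with both summits within 23 bp of the pooled one. The summit lay 1064 bp upstream of cyc-2.1 and 298 bp upstream of rpl-20, a ribosomal protein gene on the same strand that ends 111 bp before cyc-2.1 begins. It lay 164 bp upstream of Y17G9B.5, on the other strand, which had the nearest start. At the start of cyc-2.1 itself, 8 bp upstream, the pooled signal was 18.02 and the replicate 1 signal 11.4, 3 bp upstream, and replicate 2 had no candidate there. Which of these 3 genes the peak belongs to cannot be told apart from position. cyc-2.2 had 8.40 in replicate 2 only, at percentile 24.2.

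**Figure D2:**
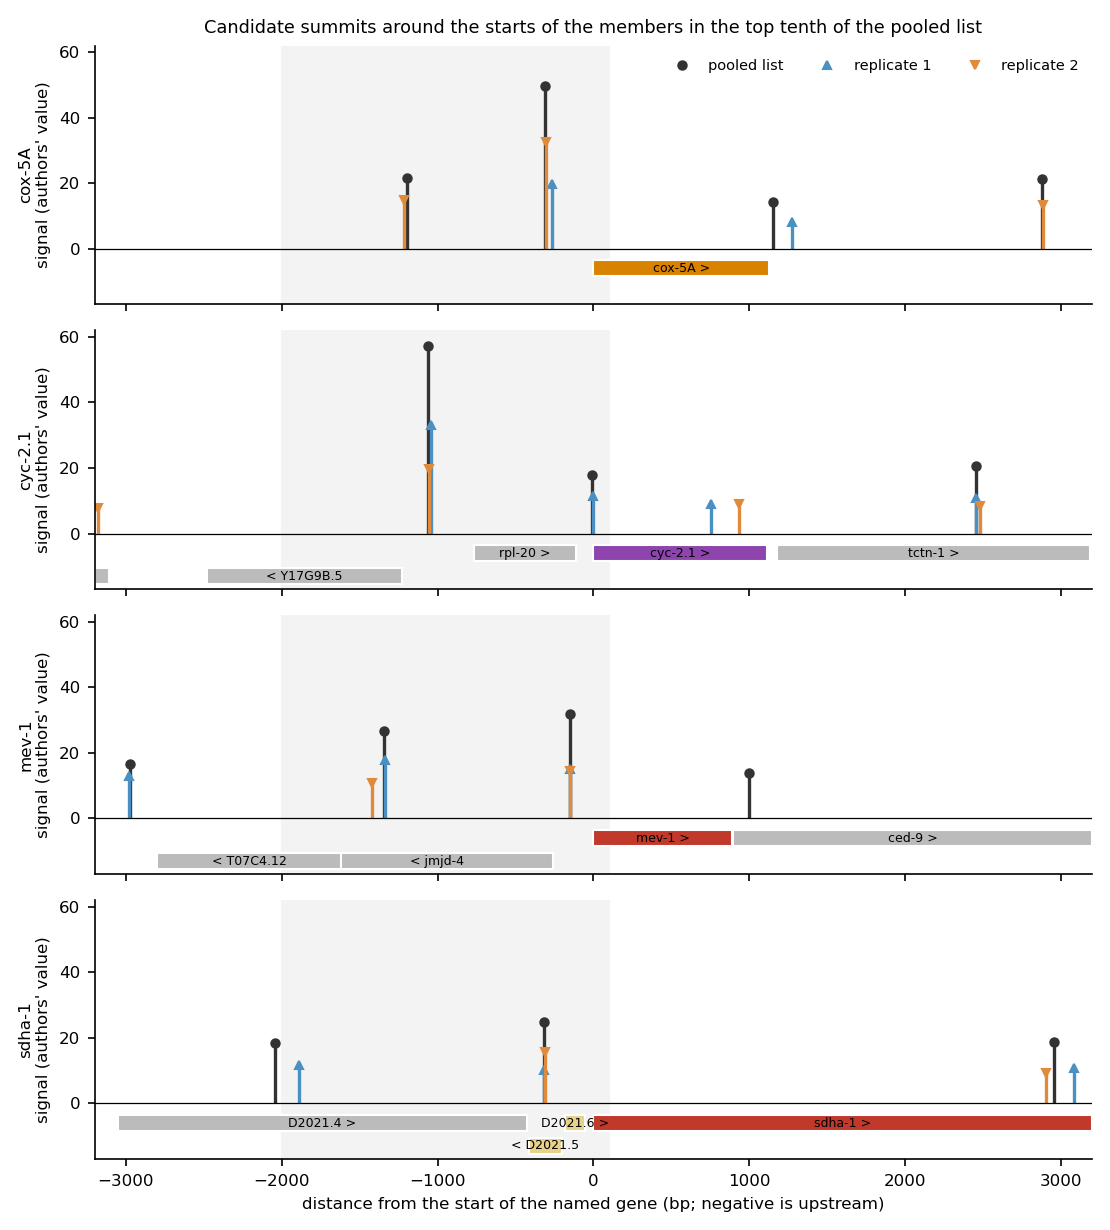
Candidate summits (vertical lines, height is the authors' signal) in the pooled list and in each replicate around the starts of cox-5A, cyc-2.1, mev-1 and sdha-1, with distance from the start on the x axis, the window shaded and genes drawn as bars below (> and < give the strand relative to the named gene; yellow bars are non-coding genes). Upstream of cox-5A the peak of 49.8 lies nearest the gene, with a further pooled candidate of 21.5 behind it, and no other annotated gene is drawn, whereas the 57.1 peak of cyc-2.1 lies between rpl-20 and Y17G9B.5.

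In complex II, mev-1 (WBGene00003225, III 10334277 to 10335168, plus strand), the gene of the SDHC-type membrane anchor, had 31.9 in the pool at rank 354. The summit lay 147 bp upstream in intergenic sequence. Replicate 1 had 15.01 there at rank 2415 and replicate 2 had 14.3 at rank 2826, with both summits within 2 bp of the pooled one. The position was thus shared by the 3 lists, at moderate ranks in each replicate. jmjd-4, on the opposite strand, starts 112 bp from the summit, nearer than mev-1 itself. mev-1 is known to be transcribed together with ced-9, the cell death inhibitor gene that begins just behind it. A further candidate in the window of mev-1 had 26.8 in the pool and 17.97 in replicate 1, 1344 bp and 1338 bp upstream, with 10.9 in replicate 2 at 1418 bp.

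sdha-1 (WBGene00015391, X 8542757 to 8546021, minus strand), which encodes the flavoprotein subunit of succinate dehydrogenase, had 24.8 in the pool at rank 2749, 314 bp upstream. Replicate 1 had 10.18 at that position and replicate 2 had 15.8, at ranks 14016 and 1483, so that the position was shared and the rank was not. The highest replicate 1 candidate in the window lay elsewhere, with 11.6 at rank 8609, 1888 bp upstream. The summit fell within D2021.5, annotated as a non-coding RNA, and sdha-1 had the nearest protein-coding start. The start of D2021.6, a snoRNA gene on the strand of sdha-1, lies between the summit and sdha-1 and is nearer to the summit. D2021.4 ends 424 bp before sdha-1 on the same strand, so sdha-1 lies downstream of another gene in a run. Which of these genes the peak belongs to cannot be told from position. The sdha-1 paralog sdha-2 had 12.0 in replicate 1 only. sdhb-1, the iron-sulfur subunit gene, had no candidate in any of the 3 lists.

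The 5 ATP synthase genes that the naming rule took, those with atp- symbols, all had a pooled and a replicate 1 candidate. Of these 5, 1 had a replicate 2 candidate. These shares were 100%, 100% and 20%, against 50.4%, 49.7% and 50.5% of all protein-coding genes. Further genes of this complex, such as asb-1, asb-2 and R53.4, were outside the rule. asb-1 had 16.9 in the pool, asb-2 had no pooled candidate, and R53.4 had 20.6 in the pool and 18.8 in replicate 2. atp-2, the gene of the catalytic beta subunit, had 23.3 in the pool and 15.6 in replicate 1, in both lists 180 bp upstream, and none in replicate 2. It stands head to head with C34E10.10 and C34E10.12, whose windows hold the same summit. atp-5, the gene of the stalk subunit d, had 22.8, 11.6 and 11.5 in the pool, replicate 1 and replicate 2, with the summits from 240 to 246 bp upstream. It is the member of this group with a shared position in all lists, and lmtr-3 on the opposite strand starts 74 bp from the pooled summit. atp-4, encoding coupling factor F6, had 21.2 and 9.56 in the pool and replicate 1, 825 bp and 826 bp upstream in an exon of alh-4. atp-1, the alpha subunit gene, had 20.5 in the pool at 3 bp upstream and 10.9 in replicate 1 at 79 bp upstream. atp-3, the gene of the oligomycin sensitivity subunit, had 16.2 in the pool and 10.21 in replicate 1, 1019 bp upstream in coding sequence of F27C1.2. The values of 4 of the 5 thus rest on replicate 1 and the pool.

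**Figure D3:**
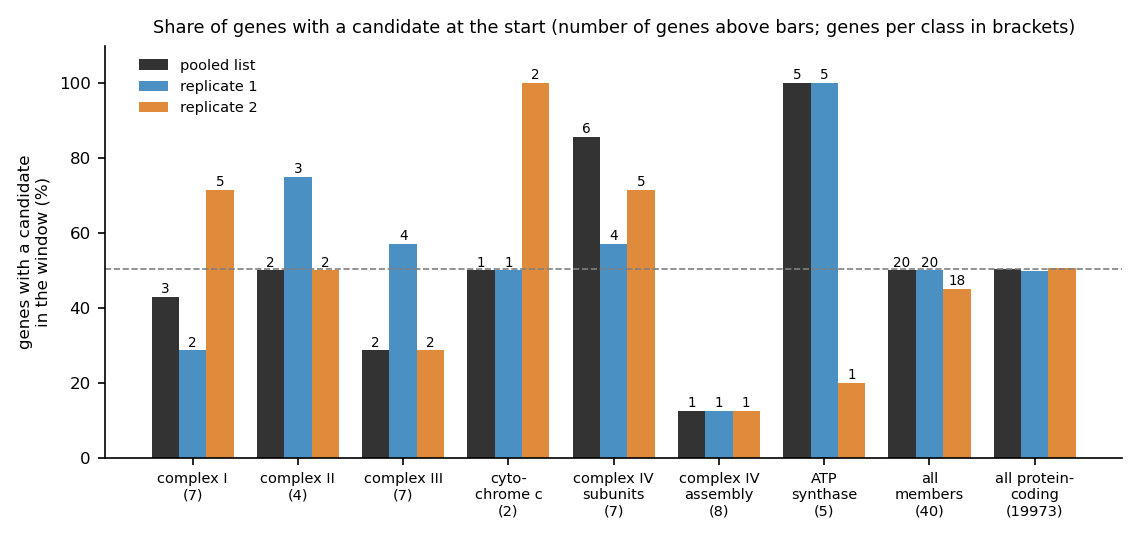
Share of genes (y axis, %) with a candidate in the window in the pooled list, replicate 1 and replicate 2, by complex, for all 40 members and for all protein-coding genes; numbers above bars are genes, and the dashed line is the pooled share of all protein-coding genes, 50.4%. The atp- genes of ATP synthase had 5, 5 and 1 of 5 in the pool, replicate 1 and replicate 2, and complex IV assembly factors 1 of 8 in each.

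Complex I, the NADH dehydrogenase, had pooled candidates at 3 of the 7 genes that the naming rule took. In replicate 1 it had 2 and in replicate 2 it had 5. These shares were 42.9%, 28.6% and 71.4%, against 50.4%, 49.7% and 50.5% of all protein-coding genes. Further complex I genes, such as nduf-7 and nduv-2, were outside the rule. nuo-1, the gene of the NADH-binding flavoprotein subunit, had 22.4 in the pool and 12.8 in replicate 1, 209 bp and 204 bp upstream. The only replicate 2 candidate in its window lay 1633 bp upstream, with 7.59. The pooled summit lay within the non-coding gene C09H10.11 and 424 bp upstream of rpl-36.A, a ribosomal protein gene on the other strand. nuo-2, the gene of an NDUFS3-type core subunit, had 20.5, 11.0 and 9.29 in the pool, replicate 1 and replicate 2, 1459 bp, 1464 bp and 1401 bp upstream. This is nearer to T10E9.14, the gene 20 bp before it on the same strand. At the start of nuo-2 itself, 19 bp downstream, the pool had 16.3 and replicate 1 had 9.59. nuo-4 had 14.2 in the pool and 12.8 in replicate 2, 1443 bp and 1463 bp upstream, and none in replicate 1. Its pooled summit lay in an intron of rnp-7 and, at rank 27985, was close to the lowest signal of the list. gas-1 had 9.35 in replicate 2 only, 1827 bp upstream, and nuo-6 had 10.4 in replicate 2 only, 1705 bp upstream. nuo-3 and nuo-5 had none in any list.

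Complex III had candidates at 2 of 7 genes in the pool, 4 in replicate 1, 2 in replicate 2 and none in both replicates. The first 3 shares were 28.6%, 57.1% and 28.6%, against 50.4%, 49.7% and 50.5% of all protein-coding genes. Of all genes, 29.7% had a candidate in both replicates. The pair in the pool were ucr-2.2 and ucr-2.1, which encode core proteins. ucr-2.2 had 17.7 in the pool and 13.1 in replicate 2, 1818 bp and 1810 bp upstream in an intron of ocr-3. Nearer its start it had 17.6 in the pool and 12.13 in replicate 2, 356 bp and 292 bp upstream. ucr-2.1 had 17.4 and 9.64, 55 bp and 109 bp upstream. The third paralog, ucr-2.3, had none in any list. isp-1, the gene of the Rieske iron-sulfur protein, had 16.6 in replicate 1 at rank 1232, 1962 bp upstream, and was in neither other list. cyc-1 (cytochrome c1), ucr-1 and ucr-11 had 10.7, 11.4 and 7.73 in replicate 1 only.

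The replicates were compared gene by gene. The pooled summit had a summit within 100 bp in both replicate lists for 8 genes (20% of 40, against 11.8% of all genes), which are 40% of the 20 members with a pooled candidate, against 23.3% of all such genes. They were cyc-2.1, cox-5A, mev-1, sdha-1, cox-7C, atp-5, nuo-2 and cox-6A. For cyc-2.1, nuo-2, cox-6A and cox-7C the summit lay over 1000 bp from the member's own start, and with windows of 500 bp upstream 4 genes were left (10% against 4.23%). When a summit counted only for the nearest protein-coding start, 3 genes were left (7.5% against 7.95%), which is near the background. Exactly 1 replicate list had a candidate for 20 of the 40 genes, 50% against 40.7% of all genes. Of these, 11 were in replicate 1 alone and 9 in replicate 2 alone. On the X chromosome, all 4 members had a replicate 2 candidate and 1 a replicate 1 candidate (all protein-coding genes on X, 55.7% and 56%). On the autosomes 14 of 36 members had a replicate 2 candidate and 19 a replicate 1 candidate (38.9% and 52.8%, against 49.6% and 48.7% of all protein-coding genes on autosomes).

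**Figure D4:**
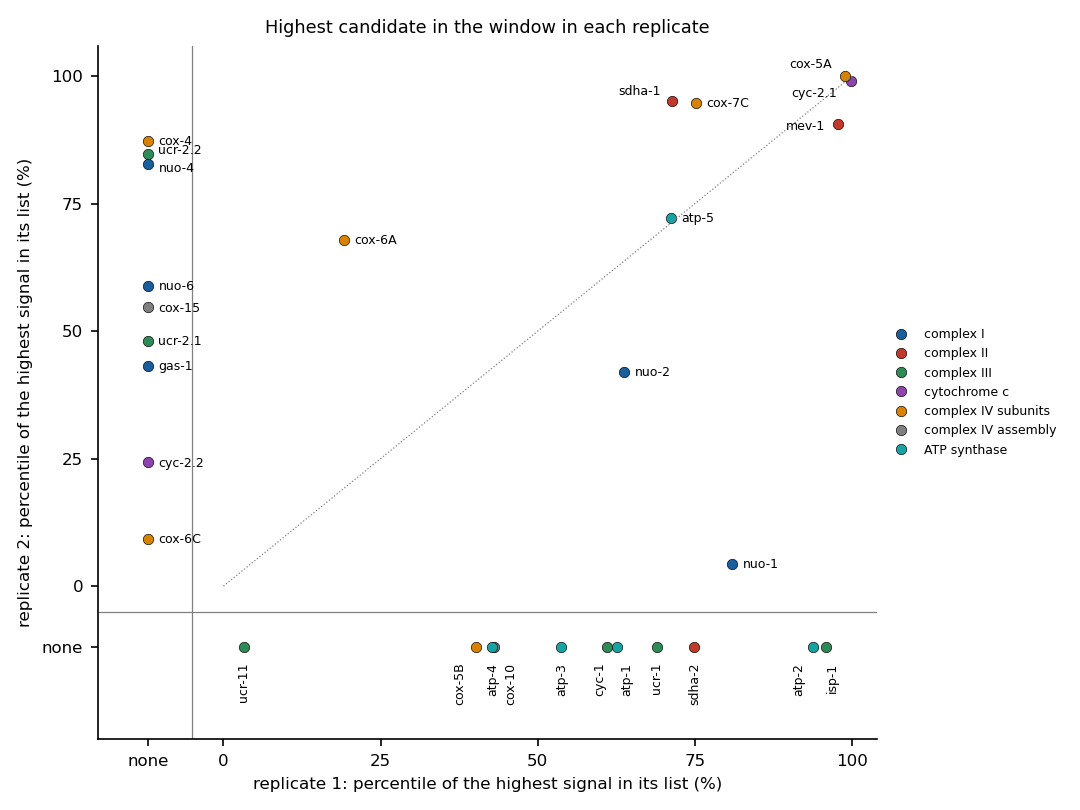
Percentile of the highest signal in the window within the replicate 1 list (x axis) and the replicate 2 list (y axis) for the 29 members with a candidate in either, coloured by complex; genes without a candidate in a list are drawn in the strip marked none. cox-5A, cyc-2.1 and mev-1 lie above percentile 90 in both, while 20 genes lie in 1 of the strips. For mev-1 the plotted candidates differ, 1338 bp upstream in replicate 1 and 149 bp upstream in replicate 2.

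The summits lay close to the starts in 10 of the 20 genes with a pooled candidate, that is within 500 bp upstream or 100 bp downstream (50%, against 30.2% of such genes in all). In 8 it was over 1000 bp upstream (40% against 46.7%). Any pooled candidate in that close window, highest or not, was found for 13 members (32.5% against 18.9% of all genes). The highest summit also lay in the window of another protein-coding gene in 13 of 20 (65% against 31.8%), and the member's own start was the nearest in 11 of 20 (55% against 64.8%). Some of these other genes stood head to head with the member, such as mcrs-1 at atp-1, nmat-1 at ucr-2.1 and slc-30A9 at cox-6B. Their share over all genes was not counted. By annotation 10 summits were intergenic, 8 lay in an exon of a coding or non-coding gene and 2 in an intron. The same places were not counted for all genes, so these counts have no background. A run of same-strand genes held 15 of the 40 members downstream of another gene (37.5% against 20.8% of all genes), none of them a complex IV subunit gene.

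**Figure D5:**
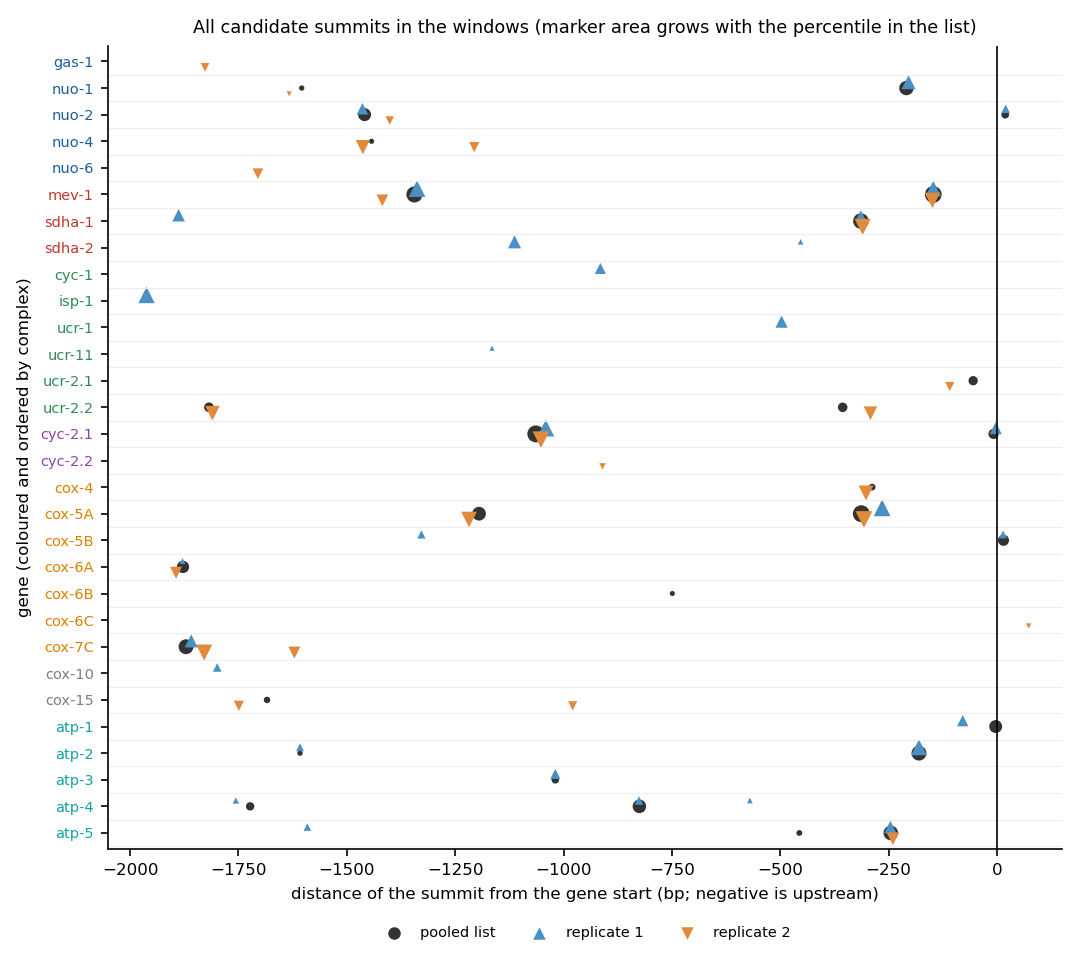
Distance of each candidate summit from the gene start (x axis, bp, negative is upstream) for the members with a candidate in any of the 3 lists (y axis), in the pooled list and the replicates; marker area grows with the percentile in the list. Markers of all 3 lists coincide within 500 bp upstream of the start for cox-5A, mev-1, sdha-1 and atp-5.

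The sequence within 100 bp of the 20 pooled summits was searched for 6 motifs on both strands. CACGTG reads the same on both, and no matches to different motifs overlapped in these windows. AGGTCA was in 1 window (5%, cox-7C) and in 5.01% of all pooled candidates. AGTTCA was in 2 (10%, cox-15 and atp-5, against 14.3%), and CACGTG in none (against 3.62%). GAGAGA was in 7 (35%, against 11.5%), those of sdha-1, ucr-2.2, cox-4, cox-5A, cox-6B, cox-7C and atp-3. AGCGCG was in 2 (10%, mev-1 and atp-1, against 2.06%), and CCCTGC in 1 (5%, atp-3, against 2.32%). At the highest summits in the windows of all protein-coding genes GAGAGA was in 12.7%. The median GC content was 39.05% over the 20 windows and 35.8% over those of all protein-coding genes, and its part in the motif shares was not tested. A match is a string of letters and was not tested as a binding site.

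Other genes of mitochondrial and proton-pumping complexes were set beside these. Of 42 further respiratory chain genes outside the naming rule, 24 had a pooled candidate (57.1%), 25 a replicate 1 candidate (59.5%) and 17 a replicate 2 candidate (40.5%). The shares of all protein-coding genes were 50.4%, 49.7% and 50.5%, and 50.4% is the background of each pooled share that follows. None of the 42 had an IDR peak, and 0.135% of all protein-coding genes had one. The highest pooled signals among them were 29.3 at T27E9.2, 27.4 at mai-2, an ATPase inhibitor gene, and 23.8 at nduf-11. The summit lay 416 bp upstream of T27E9.2 but nearest to ant-1.1. At mai-2 it lay 1157 bp upstream and nearest to B0546.4, and at nduf-11 53 bp downstream of its start. Of 70 mitochondrial ribosomal protein genes, 33 had a pooled candidate (47.1%), with the highest at mrps-28 (41.5, 1024 bp upstream and nearest to Y43F8C.7). Of 21 citrate cycle genes, 10 had one (47.6%), with the highest at sucl-1, a succinyl-CoA ligase gene (30.4, 390 bp upstream, with 14.2 in replicate 1 and 15.3 in replicate 2). Of 22 vacuolar ATPase genes, 15 had one (68.2%), with the highest at unc-32 (40.1, 1341 bp upstream and nearest to lin-9). None of these lists had an IDR peak in a window. With 0.135% of all genes having one, none in lists of this size is near the background. Their median percentiles were 60.5, 63.4, 63.8 and 79.4 in the order given, against 73.7 for the 40 genes and 56.9 over all genes with a candidate.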

How the data were processed

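Peak lists from 2 biological replicates of 1 group were used, in the ce11 build. Per the file lists deposited with the samples, the authors derived the candidate list of each replicate from its alignments and a control, the pooled list from both alignments, and the IDR list from these 3 lists. No source used here names the peak caller, the aligner or the threshold. The signal is column 7 of the deposited lists, as the authors gave it. Column 9 of the deposited lists was taken as a score, since it falls below 0, and was not used. The summit is the start plus the deposited offset.

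Gene starts were the 5′ ends of Ensembl release 115 genes. All list positions lay within the RefSeq WBcel235 chromosomes. Python 3.11.15, pandas 2.3.3 and numpy 2.4.6 were used. Window assignment was checked on summits planted at known offsets. Summits within 100 bp counted as matched. A run was a set of same-strand genes spaced by at most 500 bp. The members, complexes, lists and motifs were chosen with earlier results of these data known. AGCGCG and CCCTGC came from those results, and GAGAGA had been tested in them, so their shares are descriptions only.

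Genes were named if they had an IDR peak, a pooled summit matched in both replicates, 1 of the 3 highest pooled signals of a complex, no candidate in any list, or a complex of at most 5 genes. Other members were named to account for all 40. Of 42 names listed for further respiratory chain genes, 19 were matched through RefSeq locus tags and 5 were not matched, and genes with symbols starting nduf- were added to these. The ce10 lists were not used here, and the sequence at cox-5A is not reported here. Alternatives were other windows, starts, list thresholds, match distances and single replicates.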

Additional observations from a re-analysis of the deposited data

How the results depend on the processing

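No paired analysis was possible because there is 1 group. The count of 20 members with a pooled candidate was 13 with windows of 500 bp upstream (32.5% against 18.9% of all genes), 13 when a summit counted only for the nearest protein-coding start (32.5% against 34.7%), 12 with the top 10000 regions of each list (30% against 20%) and 7 with the top 5000 (17.5% against 10.7%). It ran from 18 to 20 with 1 replicate left out, of which 14 were among the 20 in either case. The median percentile of 73.7 was 73.6 with windows of 1000 or 500 bp and with the first gene of a run, 73.9 with any transcript start, 69.7 with the nearest start, 85.6 with the top 10000 (84.7 over all genes) and 90.8 with the top 5000 regions (92.1 over all genes), and 70 with either replicate left out. The 9 genes with a candidate in both replicates became 4 with windows of 1000 bp (10% against 13.3%) or 500 bp (10% against 6.17%), 3 with the nearest start (7.5% against 17.7%) and 3 with the top 5000 (7.5% against 2.16%). The 2 genes with an IDR peak became 1, cox-5A, with windows of 1000 or 500 bp (2.5% against 0.0951% and 0.0701%) and with the nearest start (2.5% against 0.1%). The summit near cyc-2.1 lies 1064 bp from its start and nearer to Y17G9B.5. The 8 matched genes became 4 with windows of 1000 bp (10% against 6.85%) and 500 bp (10% against 4.23%), 3 with the nearest start (7.5% against 7.95%), 5 with the top 10000 (12.5% against 2.74%) and 3 with the top 5000 regions (7.5% against 1.08%). Shorter windows, single assignment and shorter lists each leave fewer candidates to count. The replicate lists' medians differed by so little (SD 0.00943) that any other median counts as moved. The run start was chosen after the data were seen. Read depth was unknown, so no counting error could be given.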
